A study of Mus musculus with 26 samples.

Results

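Gpx2, Gpx3, Gstp1, Gsta4, Gclc, Gclm, Nqo1, Hmox1, Txnrd1 and Srxn1 form the set of glutathione and NRF2 antioxidant genes described here. They were taken by name, each with its single-gene probe set of the highest mean, and all 10 were found among the 18193 genes measured in 26 mouse skin cell lines. The set was chosen with its levels by tumour stage already known, in particular the low Gpx2 of carcinoma lines and the high Gstp1 of spindle lines. The stage differences of the 10 genes are therefore given as a description, with no p. The number of them past limma's threshold is printed once beside the share of all genes, with nothing read from it. All values are log2 RMA values from 1 array per line, so 1 unit is a doubling, and each ± gives the SD over the lines of a group. An SE is limma's.

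The lines were cultured in serum and harvested during log-phase growth, without treatment. The keratinocyte group held the immortalised lines C5N and NK (n = 2), and NK came from a mouse without p53. P6 was the one papilloma line. The non-spindle carcinoma group (n = 12) held B9, B9ras, B9rassmad, E4, MSC7A, MSC11B, MSC12, MSCP1, MSCP5, PDV, PDVC57 and SN161, all from squamous carcinomas of the skin. Of these, SN161 came from a Spretus/NIH cross, and MSCP5, MSC12, MSCP1, MSC11B and MSC7A from Spretus/CBA crosses. The spindle carcinoma group (n = 7) held A5, CarB, CarC, D3, D3DP, H11 and MSN2, from squamous carcinomas with elongated, fibroblast-like cells. No keratinocyte or spindle line is labelled as from a Spretus cross. Stage and cross therefore cannot be fully told apart in the stage comparisons. Outside the groups were 4 lines. The spindle state of 2945CA and of MSCb1 (from a Spretus/CBA cross) is not stated, and the cell type label and the flags conflict for B9Smad and for 1 immortalised keratinocyte line. That keratinocyte line is titled Hrasnull. Ages, sexes and the other strains are not given in the labels, and each line is a single line of cells rather than a sample of a tumour. In such bulk RNA, fewer cells that express a gene and less of its RNA per cell cannot be told apart.

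Glutathione is a small thiol that peroxidases use to reduce peroxides and that transferases attach to reactive compounds. Its first step of synthesis is made by a ligase of a catalytic subunit, encoded by Gclc, and a modifier subunit, encoded by Gclm. Many of the genes are switched on by the transcription factor NRF2 (Nfe2l2), which KEAP1 marks for degradation until oxidants or electrophiles block it, and which then binds antioxidant response elements with a small MAF partner. In skin, this system protects keratinocytes against sunlight, oxygen radicals and chemical carcinogens.

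The labels were checked against marker genes. The 13 measured keratinocyte genes, among them Krt5, Krt14 and Trp63, had a mean of 11.61 to 11.62 in the keratinocyte lines, 12.08 in P6, 4.87 to 12.04 in non-spindle lines and 5.14 to 6.35 in spindle lines. MSC12, MSC11B and MSC7A, labelled non-spindle, had keratinocyte means of 4.87, 5.92 and 5.05, in or below the spindle range. The mean of 15 mesenchymal genes ran from 5.53 to 5.81 in keratinocyte lines, 5.42 to 10.64 in non-spindle lines and 7.51 to 10.74 in spindle lines. Of 8 leukocyte genes, 3 (Ptprc, Adgre1 and Cd79a) were above the array median in no line, while 5 were above it in some line of each main group and 3 in all spindle lines. Their mean ran from 4.80 to 5.07 in keratinocyte, 5.01 to 6.23 in non-spindle and 5.26 to 5.58 in spindle lines. Of 6 endothelial genes, Tie1 and Esam were above the median in no line, and 2, 3 and 1 were above it in some keratinocyte, non-spindle and spindle line, with list means of 4.30 to 4.88, 4.09 to 4.58 and 4.10 to 4.28. Of 7 melanocyte genes, Dct, Tyr and Tyrp1 were above the median in no line, and 3 were above it in all keratinocyte and all spindle lines, with list means of 4.86 to 5.13 and 4.81 to 5.02, and of 4.35 to 5.15 in non-spindle lines. The part of these lists in the results was not tested. Some arrays were close over all probe sets: A5 and H11 had a Pearson correlation of 0.993, PDV and MSCP1 0.991, and PDV and B9ras 0.990. MSCP1 thus lay nearest to PDV, although only MSCP1 is labelled as a Spretus cross. No pair of arrays was identical.

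The antioxidant response element core was sought as TGACNNNGC, on both strands, in windows of 250 bases before to 50 after each RefSeq start site (GRCm38.p6). Windows were held for 7 of the 10 genes, which were Gclm, Gpx2, Gpx3, Gstp1, Nqo1, Srxn1 and Txnrd1. A match stood in windows of Gclm, Srxn1 and Txnrd1, which is 3 of the 9 windows of these genes, beside 4071 of all 32851 windows (12.4%). In Srxn1 the match began at position 29 after the start, and in Txnrd1 it stood at 1 of 3 start sites. A match is a description of the letters and not a measured site. The 150 bases before the start are shown for Gclm and for that start of Txnrd1, because there the match lay before the start. Both lie on the plus strand, at chr3:122245407-122245556 for Gclm and chr10:82859056-82859205 for Txnrd1, and capitals mark the match, which reads TGACGGTGC and TGACAAAGC on the other strand.
Gclm: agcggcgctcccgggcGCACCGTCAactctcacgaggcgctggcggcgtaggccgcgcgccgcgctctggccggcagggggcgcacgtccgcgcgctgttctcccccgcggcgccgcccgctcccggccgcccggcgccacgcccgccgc
Txnrd1: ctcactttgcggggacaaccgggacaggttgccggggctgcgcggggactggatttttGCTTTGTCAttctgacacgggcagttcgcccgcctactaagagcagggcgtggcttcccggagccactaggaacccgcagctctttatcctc

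The genes differed in how far they varied. Nqo1 had the largest spread over the 26 lines, with an SD of 2.28, and 98.5% of the 12641 genes tested had a smaller SD. Gpx2 followed with an SD of 2.07 and Gsta4 with 1.56. Hmox1 had an SD of 1.04, Srxn1 0.83, Gclm 0.80 and Gstp1 0.72. Txnrd1 and Gclc were steadier, with SDs of 0.60 and 0.54. Gpx3 stayed at background except in 1 line and was the one gene of the 10 that failed the filter on low values, which asks for a value above the array median on at least 2 arrays.

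**Figure D1:**
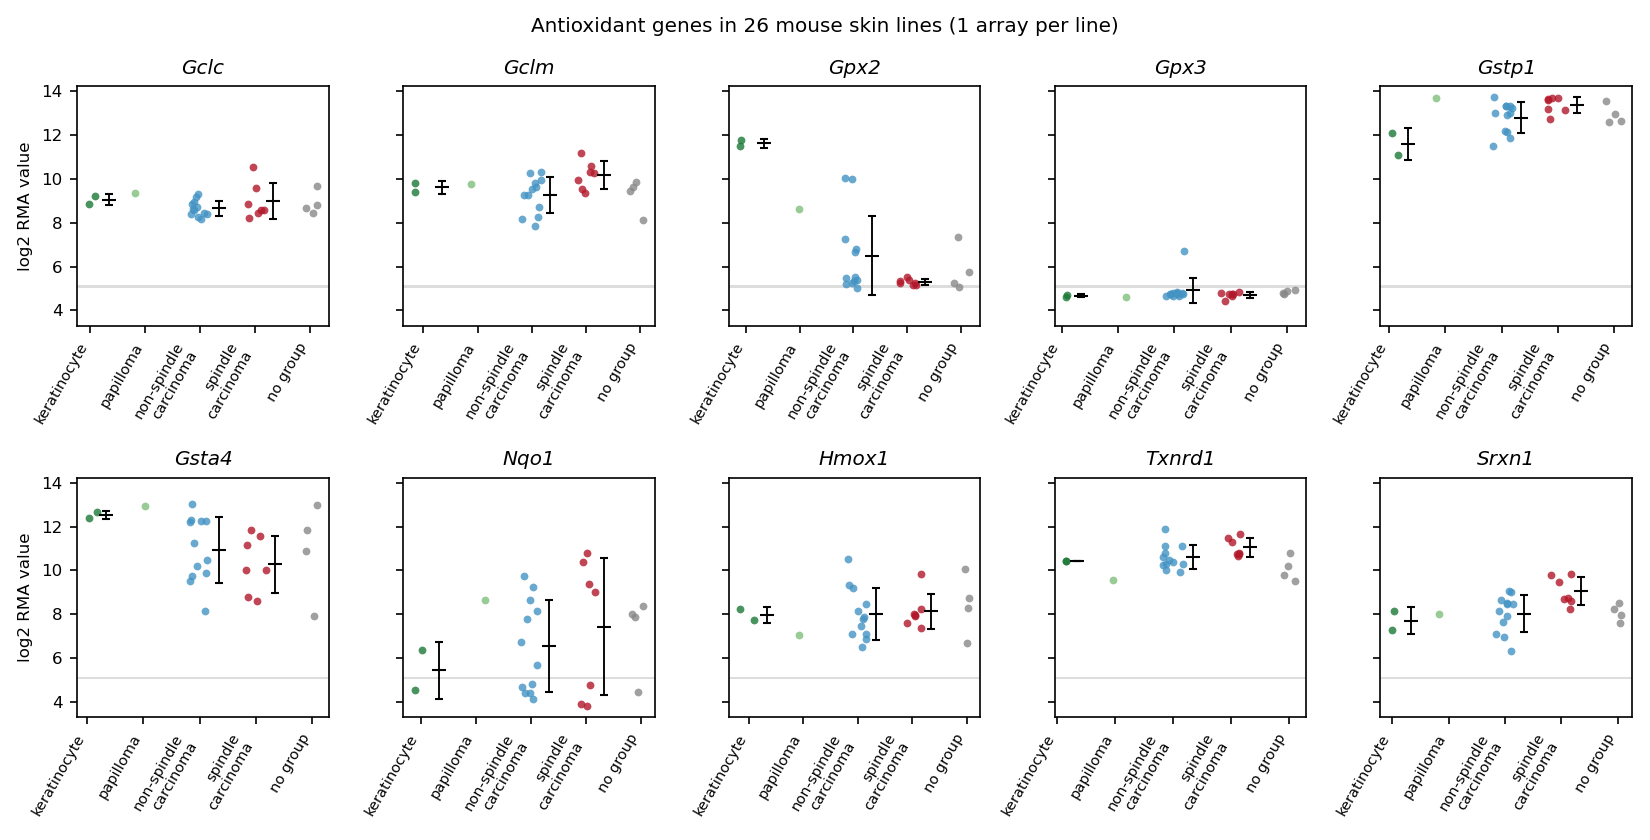
Log2 RMA values of the 10 genes in 26 mouse skin lines, 1 point per line, by group, with the mean and SD (black) for the 3 groups of more than 1 line. The grey band marks the array medians over all probe sets, 5.04 to 5.15. Gpx2 is 11.49 and 11.76 in the keratinocyte lines and lies near the band, at 5.14 to 5.52, in the 7 spindle lines.

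Of the peroxidases, Gpx2 had the widest separation between stages. Gpx2 encodes a glutathione peroxidase found mainly in epithelial cells. Its level was 11.49 in C5N and 11.76 in NK, and 8.64 in P6. In the 12 non-spindle lines it ran from 5.02 in MSCP1 through a median of 5.50 to 10.02 in B9. In the 7 spindle lines it ran from 5.14 in CarB through a median of 5.27 to 5.52 in A5. The keratinocyte lines were above every carcinoma line, and the spindle lines lay within a narrow range near the array median. The non-spindle mean of 6.50 ± 1.79 differed from the keratinocyte mean of 11.62 ± 0.19 by -5.12 (SE 1.02), which is 34.8-fold lower. The spindle mean of 5.29 ± 0.13 differed from the keratinocyte mean by -6.33 (SE 1.07), which is 80.4-fold lower. With 1 array of each close set (without H11, B9ras, MSCP1 and MSN2) these differences were -4.88 and -6.29. With all lines placed by their cell type label, they were -3.85 and -4.90. That placement adds the keratinocyte line outside the groups at 7.33 to the keratinocyte lines and B9Smad at 5.24 to the spindle lines. It also adds 2945CA at 5.06 and MSCb1 at 5.74 to the non-spindle lines. Values near the array median are close to background, so both folds may be compressed.

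The non-spindle lines were uneven in Gpx2. B9 and MSCP5 had 10.02 and 9.98, PDV 7.26, SN161 6.82 and E4 6.67. The other 7 lay between 5.02 and 5.53, in or near the spindle range. Counting the lines 1 unit or more above their array median, a limit chosen after the values were seen, 9 of the 26 lines reached it and 17 did not. The keratinocyte line outside the groups had 7.33, whereas MSCb1, B9Smad and 2945CA had 5.74, 5.24 and 5.06. The spindle and non-spindle groups overlapped, with a difference of -1.21 (SE 0.63), and of -1.61 without MSC12, MSC11B and MSC7A. The keratinocyte marker mean moved with Gpx2 over the 26 lines, with a Pearson correlation of 0.63. That correlation was 0.48 in the 12 non-spindle lines and -0.23 in the 7 spindle lines. The part of the marker mean in the level of Gpx2 was not tested.

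Gpx3, the secreted glutathione peroxidase of plasma, was not above the array median in 25 of the 26 lines. Its level was 6.72 in MSC7A and between 4.41 and 4.91 in the other lines. No difference is read from it.

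Of the transferases, Gstp1 had its lowest group mean in keratinocyte lines and its highest in spindle lines. GSTP1 conjugates glutathione to electrophiles. Its level was 11.07 in C5N, 12.11 in NK and 13.69 in P6. In non-spindle lines it ran from 11.52 in MSCP1 through a median of 13.01 to 13.74 in MSC11B. In spindle lines it ran from 12.75 in A5 through a median of 13.59 to 13.68 in MSN2. All 7 spindle lines were above both keratinocyte lines, and so were 10 of the 12 non-spindle lines, since MSCP1 and PDVC57 at 11.85 were below NK. The spindle mean of 13.38 ± 0.36 exceeded the keratinocyte mean of 11.59 ± 0.73 by 1.79 (SE 0.47), or 3.47-fold. That difference was 1.27 without C5N and 2.31 without NK. With all lines placed by their cell type label, it was 1.37 (SE 0.41). That placement adds the keratinocyte line outside the groups at 12.58 to the keratinocyte lines and B9Smad at 12.64 to the spindle lines. It also adds 2945CA at 12.94 and MSCb1 at 13.54 to the non-spindle lines. Spindle minus non-spindle was 0.43 (SE 0.27) under that placement. The non-spindle mean of 12.80 ± 0.70 lay between, 1.21 (SE 0.45) above keratinocytes and 0.58 (SE 0.28) below spindle lines. P6 stood beside the highest carcinoma lines. Gstp2, a near-identical paralog, had no single-gene probe set, so the Gstp1 signal could hold RNA of both.

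Gsta4, a transferase that detoxifies the lipid peroxidation product 4-hydroxynonenal, went the other way. Its level was 12.41 in C5N, 12.66 in NK and 12.95 in P6. In non-spindle lines it ran from 8.15 in MSC7A through a median of 10.85 to 13.01 in MSCP5, and in spindle lines from 8.59 in D3 through a median of 10.04 to 11.85 in CarB. The spindle lines were all below the keratinocyte lines, with a difference of -2.25 (SE 1.06), and the non-spindle lines overlapped both groups. The lowest of all 26 lines was 2945CA at 7.92.

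For the ligase of glutathione synthesis, the catalytic and the modifier subunit differed in pattern. Gclc, the catalytic subunit, was 8.87 in C5N, 9.23 in NK and 9.36 in P6, between 8.16 and 9.32 in non-spindle lines, and between 8.22 and 10.56 in spindle lines. Its groups overlapped throughout. Gclm, the modifier subunit, was 9.41 in C5N, 9.81 in NK and 9.77 in P6. In non-spindle lines it ran from 7.84 in MSCP1 through a median of 9.40 to 10.31 in E4, and in spindle lines from 9.37 in D3DP through a median of 10.25 to 11.20 in CarB. The spindle mean of 10.17 ± 0.63 was 0.92 (SE 0.34) above the non-spindle mean of 9.25 ± 0.83, with overlap between the groups. A second probe set of Gclm, which followed the first over the lines with a Pearson correlation of 0.834, gave 1.75 for the same difference, and 1 other probe set of Gclc gave 0.27 against 0.33.

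Of the genes of quinone and haem metabolism, Nqo1 split the lines within every group of more than 1. NQO1 reduces quinones and is a standard readout of NRF2 activity. Its level was 4.53 in C5N, 6.36 in NK and 8.65 in P6. In non-spindle lines it ran from 4.12 in PDV through a median of 6.22 to 9.76 in MSC12. Of the spindle lines, CarB had 10.81, CarC 10.36, H11 9.38 and A5 9.01, whereas D3DP had 4.79, MSN2 3.91 and D3 3.80. Nqo1 was not above the array median in 10 of the 26 lines, which were 1 keratinocyte line, 5 non-spindle lines, 3 spindle lines and B9Smad. The group means of 5.44 ± 1.30, 6.53 ± 2.10 and 7.44 ± 3.13 for keratinocyte, non-spindle and spindle lines differed by less than the SD within the carcinoma groups: the non-spindle minus keratinocyte difference was 1.09 and the spindle minus non-spindle difference 0.90. Within the non-spindle group, Nqo1 averaged 7.62 in the 6 Spretus-cross lines and 5.45 in the other 6. The part of the cross in these stage differences was not tested.

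Hmox1, the inducible haem oxygenase, was 7.71 in C5N, 8.23 in NK and 7.03 in P6. It ran from 6.48 in MSCP1 through a median of 7.83 to 10.53 in SN161 in non-spindle lines, and from 7.38 in H11 through a median of 7.95 to 9.82 in CarC in spindle lines. Its 3 group means, 7.97, 8.03 and 8.13, were within 0.16 of each other.

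The thiol enzymes Srxn1 and Txnrd1 had their highest group means in spindle lines. Sulfiredoxin, encoded by Srxn1, repairs overoxidised peroxiredoxins. Its level was 7.27 in C5N, 8.13 in NK and 7.99 in P6. It ran from 6.34 in MSCP1 through a median of 8.31 to 9.06 in SN161 in non-spindle lines, and from 8.26 in A5 through a median of 8.76 to 9.85 in CarC in spindle lines. The spindle lines were above both keratinocyte lines, by 1.36 (SE 0.60), and above non-spindle lines by 1.04 (SE 0.35) with overlap. The 3 other Srxn1 probe sets had correlations of 0.944, 0.926 and 0.649 with the first over the lines. For spindle minus non-spindle lines they gave 1.09, 1.16 and 0.27, and for spindle minus keratinocyte lines 1.20, 1.35 and 0.22. Txnrd1, cytosolic thioredoxin reductase, was 10.44 in C5N, 10.42 in NK and 9.57 in P6, between 9.93 and 11.87 in non-spindle lines, and between 10.64 and 11.68 in spindle lines. Its spindle mean exceeded the keratinocyte mean by 0.62 (SE 0.39) without overlap. The other probe sets of Txnrd1 gave 0.66 and 0.57 for that difference.

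These stage values chose the set, so the counts are given beside the share over all genes and nothing is read from them. Of the 9 genes that passed the filter, Gpx2 alone was called lower in non-spindle than in keratinocyte lines at a limma adjusted p under 0.05, beside 2.02% of the 12641 genes tested (1.13% lower and 0.886% higher). Gpx2 was also the one gene of the 9 whose lines did not overlap there, beside 5.66% of genes. Between spindle and keratinocyte lines, Gpx2 was called lower and Gstp1 higher, beside 5.35% of genes (2.95% lower and 2.4% higher). In that comparison 5 of the 9 genes (Gpx2, Gstp1, Gsta4, Txnrd1 and Srxn1) had groups that did not overlap, beside 22.9% of genes. Between spindle and non-spindle lines limma called 0 of the 9, and 2 had an unadjusted p under 0.05, beside 0.0633% of genes called and 20.7% at the unadjusted p. The comparisons with keratinocytes share the same 2 lines.

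**Figure D2:**
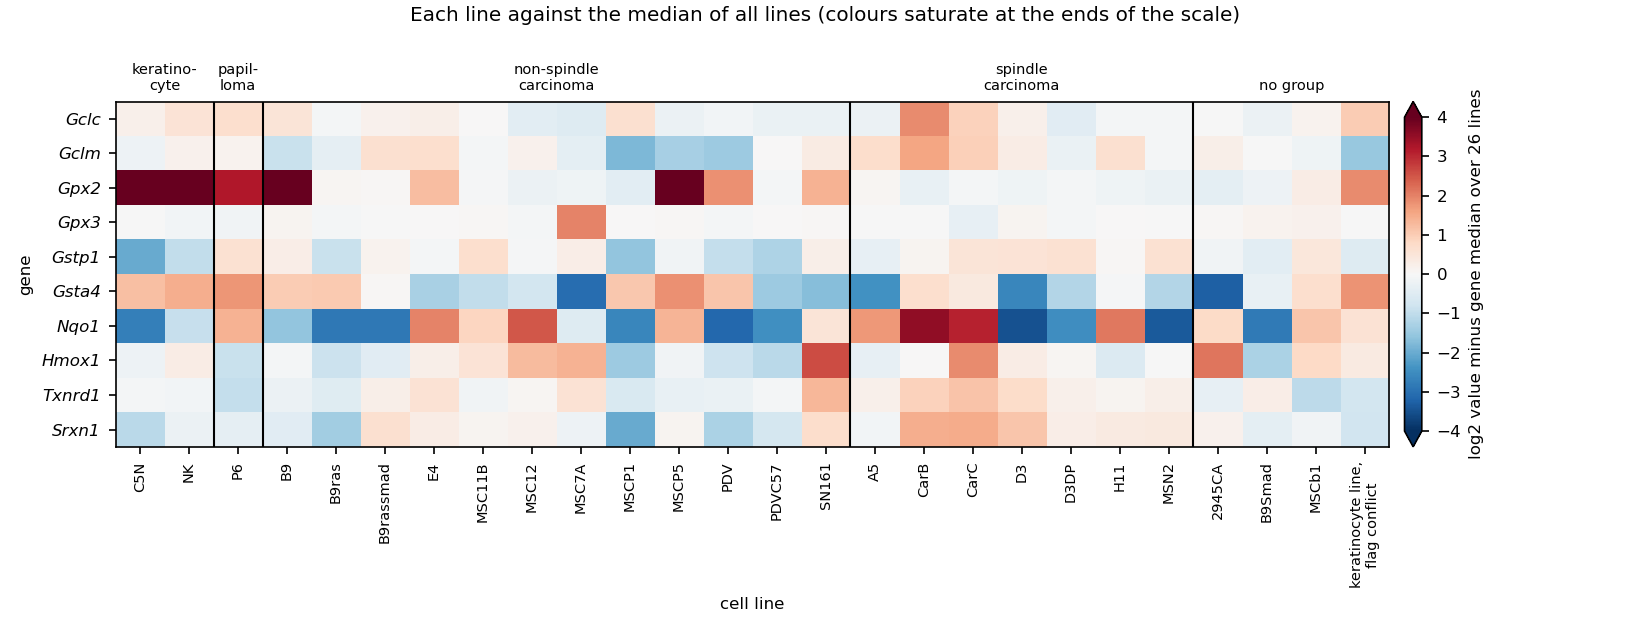
Log2 value of each gene in each line minus that gene's median over the 26 lines, with lines in columns by group. Red is above and blue below the median, and colours saturate at the ends of the scale. CarB and CarC are red for Gclc, Gclm, Nqo1, Txnrd1 and Srxn1, MSCP1 is blue for Gclm, Nqo1, Hmox1 and Srxn1, and Nqo1 is both red and blue within each carcinoma group.

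Single lines stood out across several genes. CarB and CarC were both above the other 5 spindle lines in 6 genes. For Gclc they had 10.56 and 9.60 against 8.22 to 8.87, and for Gclm 11.20 and 10.57 against 9.37 to 10.33. For Nqo1 they had 10.81 and 10.36 against 3.80 to 9.38, and for Srxn1 9.81 and 9.85 against 8.26 to 9.47. The same held for Gsta4 and Txnrd1. In Gclm, Nqo1 and Srxn1 they were the 2 highest of all 26 lines. Their high Gclc and Gclm bear on the spindle means: without CarB the spindle minus non-spindle difference of Gclc was 0.07 in place of 0.33, and that of Gclm 0.75 in place of 0.92. At the other end, MSCP1 was the lowest of all 26 lines in Gclm, Gpx2, Hmox1 and Srxn1.

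Lines with names in common differed in some of the genes. B9 had a Gpx2 level of 10.02, while B9ras had 5.53, B9rassmad 5.47 and B9Smad 5.24, differences of -4.49, -4.55 and -4.78 from B9. What the letters stand for is not given in the labels. PDVC57 differed from PDV by -1.90 in Gpx2, by -2.55 in Gsta4 and by 1.46 in Gclm. In the close pair A5 and H11, Gsta4 was 8.78 and 11.15, the one gene of the set that differed by more than 1 unit between them. CarC exceeded CarB in Hmox1, with 9.82 against 7.95. Each of these is a difference between single arrays and has no replicate check.

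The Spretus-cross comparison set the 6 non-spindle lines from such crosses against the other 6. The choice of the genes did not use it, so it could be tested. MSC12, MSC11B and MSC7A, low in keratinocyte markers, are all Spretus-cross lines. The mesenchymal marker mean was 9.28 to 10.64 in them and MSCP5, 6.12 in MSCP1 and 6.65 in SN161. It was 5.42 to 7.50 in the other 6. Within the non-spindle lines it had an r of 0.68 with Nqo1 and 0.51 with Hmox1. Cross and this state cannot be fully told apart here, and the part of the state was not tested. None of the 9 genes was called by limma with Benjamini-Hochberg adjustment over all genes, and 1, Nqo1, had an unadjusted p under 0.05. Over all genes, 0% were called and 10.9% had an unadjusted p under 0.05. Nqo1 was 4.66 in MSCP1, 6.75 in MSC7A, 7.79 in SN161, 8.14 in MSC11B, 8.64 in MSCP5 and 9.76 in MSC12, the 6 Spretus-cross lines. It was 4.12 in PDV, 4.40 in B9ras and B9rassmad, 4.83 in PDVC57, 5.69 in B9 and 9.25 in E4, the other 6. The groups overlapped through MSCP1 and E4. The difference in Nqo1 was 2.17 (SE 0.98, limma adjusted p = 0.453), and that in Hmox1 was 1.21 (SE 0.56, limma adjusted p = 0.457). The other 7 genes had differences between -0.68, in Gsta4, and 0.35, in Gstp1, with limma adjusted p from 0.707 to 0.889. Without MSCP1, whose array lay nearest to that of PDV, 163 genes were called (1.29%) in place of 0, and still none of the 9. Nqo1 then differed by 2.77 (limma adjusted p = 0.12) and Hmox1 by 1.65 (limma adjusted p = 0.079). Without MSC12, MSC11B and MSC7A instead, Nqo1 differed by 1.58 (SE 1.24) and Hmox1 by 0.85 (SE 0.74). With all lines placed by their cell type label, the differences were 1.91 (SE 0.91) and 0.85 (SE 0.59). Over the 20 alternatives the adjusted p ran from 0.12 to 0.988 for Nqo1 and from 0.079 to 0.988 for Hmox1.

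**Figure D3:**
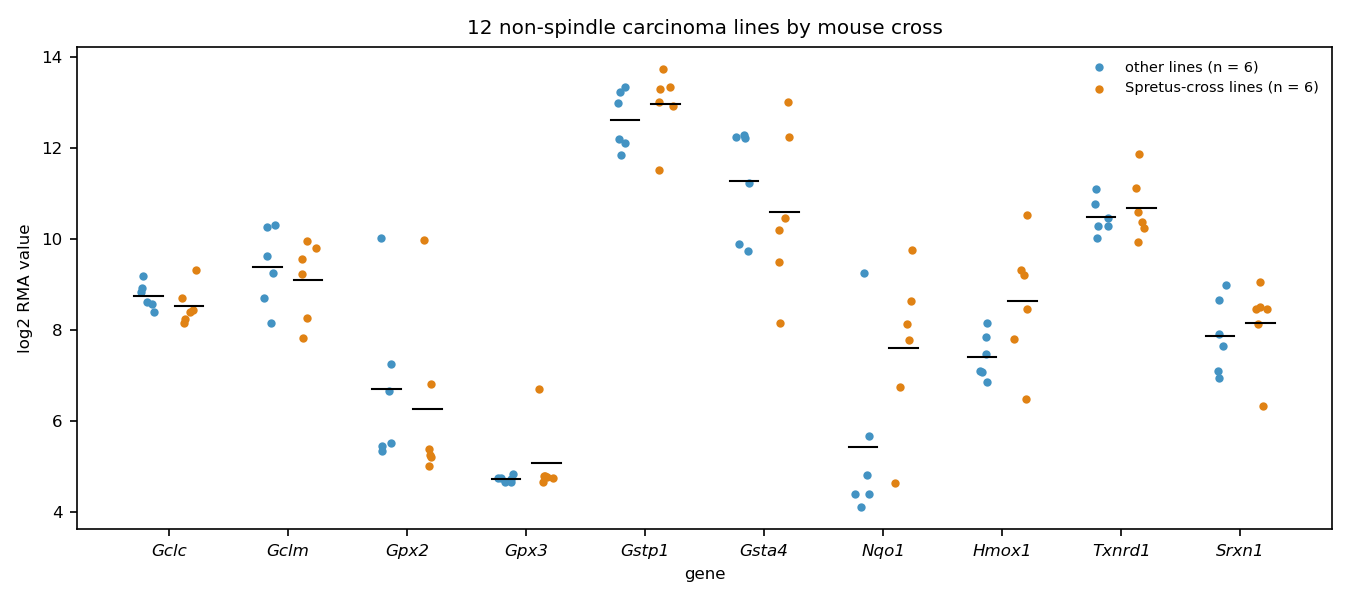
Log2 RMA values of the 10 genes in the 12 non-spindle carcinoma lines, 6 from Spretus crosses and 6 others, with 1 point per line and the mean of each set as a black bar. Nqo1 averages 7.62 in the Spretus-cross lines and 5.45 in the others. MSCP1 at 4.66 lies among the low lines of the other set, and E4 at 9.25 among the high Spretus-cross lines.

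Correlations over the 26 lines describe which genes moved together. The lines share 1 normalisation and some share a name, so no p is given. Srxn1 had the closest ties: Pearson's r was 0.75 with Gclm, 0.72 with Gstp1, 0.70 with Txnrd1 and 0.55 with Hmox1, and Spearman's rho was 0.74, 0.62, 0.70 and 0.52. Without the 2 lines farthest from the median of the gene paired with Srxn1, these r were 0.62, 0.63, 0.63 and 0.56. The lines left out thus differed by pair. They were MSCP1 and CarB for Gclm, C5N and MSCP1 for Gstp1, SN161 and CarC for Txnrd1, and SN161 and 2945CA for Hmox1. Gclm and Txnrd1 had an r of 0.59, and Gpx2 and Gsta4 one of 0.57. Of all 45 pairs, 26 had a positive r and 6 one above 0.5. For Gclc and Gclm, which encode the subunits of 1 enzyme, r was 0.18 over all lines, -0.28 in the 12 non-spindle lines and 0.86 in the 7 spindle lines, where CarB and CarC are the highest points. Gpx2 and Gsta4 had an r of 0.51 in non-spindle and -0.45 in spindle lines, where Gpx2 barely varied. Over all lines the keratinocyte marker mean went with these patterns, with r of -0.73 for Srxn1, 0.70 for Gsta4, -0.63 for Gclm and -0.61 for Gstp1. In the same order, r was -0.62, 0.76, -0.62 and -0.65 in the 12 non-spindle lines. In the 7 spindle lines it was -0.71, -0.49, -0.62 and -0.02. The part of the marker mean in these patterns was not tested. The transcript of NRF2 itself, Nfe2l2, had r between -0.17 and 0.42 with the 10 genes over all lines. In the 12 non-spindle lines its r ran from -0.11, with Gclc, to 0.47, with Gstp1. In the 7 spindle lines its r ran from -0.59, with Gpx2, to 0.70, with Gsta4.

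**Figure D4:**
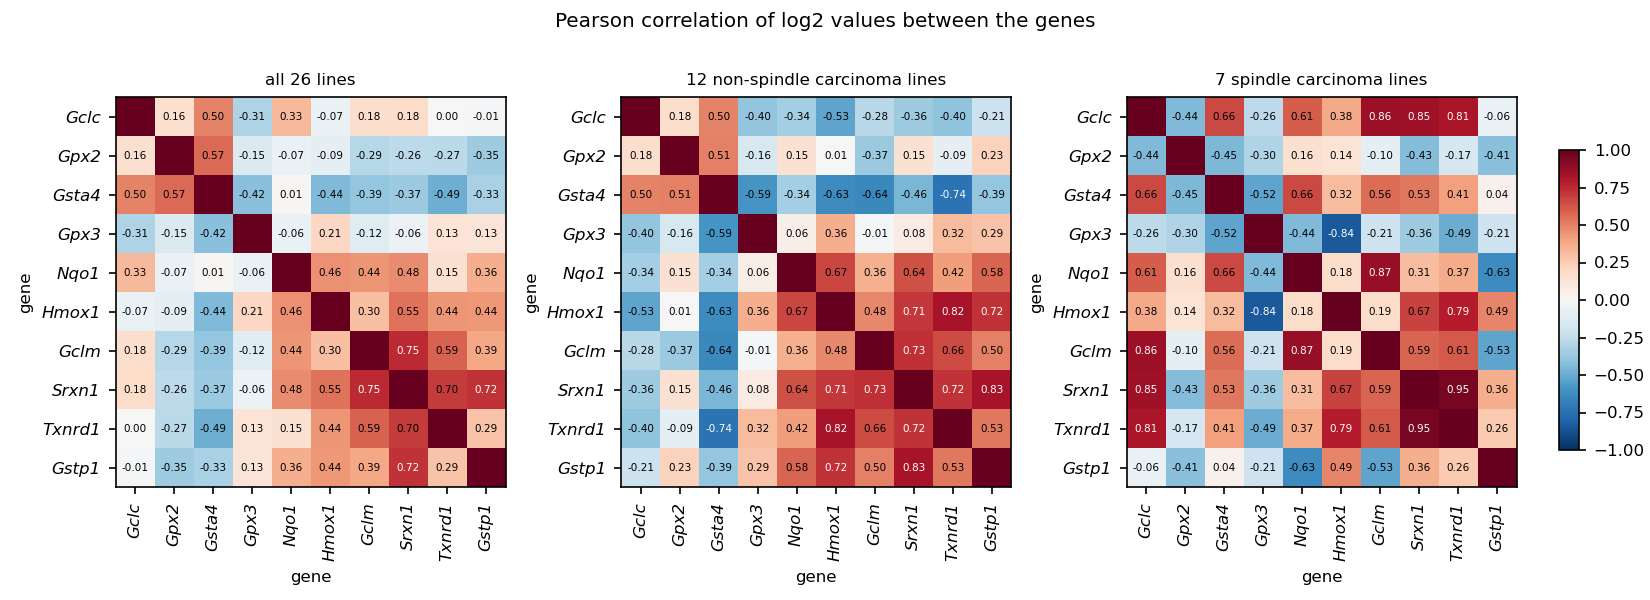
Pearson correlation of log2 values between each pair of the 10 genes, over all 26 lines, the 12 non-spindle lines and the 7 spindle lines. Red is positive and blue negative. Gclm, Srxn1 and Txnrd1 are positive with each other in all 3 panels, whereas Gclc is negative with them in the non-spindle lines and positive in the spindle lines.

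The genes most like the 3 most described members, by Pearson's r over the 26 lines, were also listed. For Gpx2 they were Tmem125 (0.915), Eps8l1 (0.912) and Crybg2 (0.897). For Gstp1 they were Arl2 (0.912), Akr1b8 (0.885) and Glul (0.883). For Nqo1 they were Nudt7 (0.833), C1s1 (0.783) and Gstm1 (0.783).

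The rest of the pathway was followed in 8 lists of 136 other genes, of which 15 lacked a single-gene probe set, 9 failed the filter and 112 were tested. These lists were written with earlier results of these data known. Between non-spindle and keratinocyte lines, 2 of the 112 rose and 0 fell, which is 1.79% beside 2.02% of all genes. The rises were in Ptgr1, a prostaglandin and leukotriene reductase, by 3.73 (SE 0.74, limma adjusted p = 0.0094), and in the aldo-keto reductase Akr1b10 by 1.24 (SE 0.32, limma adjusted p = 0.0454). Ptgr1 was 6.88 in C5N, 4.64 in NK and 10.15 in P6, and between 8.76 and 10.80 in the non-spindle lines. The keratinocyte line outside the groups had 9.07 for Ptgr1 and 6.92 for Akr1b10, within the non-spindle range of both. For Ptgr1 the carcinoma lines did not overlap C5N and NK, but without NK the difference was 2.60 and no longer called (limma adjusted p = 0.313). With all lines placed by their cell type label it was 2.67 (limma adjusted p = 0.0528).

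Between spindle and keratinocyte lines, 7 of the 112 rose and 2 fell, which is 8.04% beside 5.35% of all genes. By list they were 4 of 22 other NRF2 targets higher and 1 lower, 2 of 18 glutathione transferases higher, 1 of 11 NADPH supply genes higher and 1 of 12 NRF2 control genes lower. The median difference over the 112 was 0.29, beside 0.04 over all genes. Mgst2, a microsomal glutathione transferase, was 5.29 in C5N, 6.42 in NK, 10.15 in P6 and between 9.53 and 11.50 in spindle lines, a rise of 4.67 (SE 1.00, limma adjusted p = 0.0102). Akr1b8, an aldo-keto reductase, was 7.65 in C5N, 7.55 in NK, 12.82 in P6 and between 10.86 and 12.60 in spindle lines, a rise of 3.84 (SE 0.84, limma adjusted p = 0.0116). In both genes the papilloma line lay within or above the spindle range, and the keratinocyte line outside the groups had 10.48 for Mgst2 and 10.71 for Akr1b8, far above C5N and NK. Ptgr1 rose by 3.56 (limma adjusted p = 0.0115) and Akr1b10 by 1.33 (limma adjusted p = 0.0239), and Nqo2, the second quinone reductase, rose by 2.44 (SE 0.53, limma adjusted p = 0.0113). Nnt, the mitochondrial transhydrogenase that makes NADPH, rose by 1.05 (limma adjusted p = 0.0475), and the transferase Gstz1 rose by 0.92 (limma adjusted p = 0.0392).

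The 2 genes that fell were Trim16 and Mafk. Trim16, a ubiquitin ligase gene, was 9.62 in C5N, 9.55 in NK and between 6.34 and 7.37 in spindle lines, so that it fell by 2.65 on the log2 scale (SE 0.44, limma adjusted p = 0.0016). P6 had 8.12 for Trim16, and the keratinocyte line outside the groups had 7.15, within the spindle range. Mafk, a small MAF partner of NRF2, fell by 2.28 on the log2 scale (SE 0.51, limma adjusted p = 0.0133), but its keratinocyte lines were far apart, with 12.11 in C5N and 8.72 in NK. Without C5N the difference of Mafk was -0.59 and was not called. Without C5N only Trim16, Ptgr1 and Akr1b10 of the 9 stayed called, beside 2.04% of all genes, and without NK only Trim16, Mgst2 and Mafk, beside 2.25%. Nnt lost its call under 18 of 29 alternatives, and Akr1b10 lost its call between non-spindle and keratinocyte lines under 20 of 29. With all lines placed by their cell type label, which adds the keratinocyte line outside the groups, 5 of the 9 calls were lost. Mgst2 then differed by 2.45 (limma adjusted p = 0.254) and Akr1b8 by 2.64 (limma adjusted p = 0.0694). Akr1b10 differed by 0.94 (limma adjusted p = 0.0868), Gstz1 by 0.71 (limma adjusted p = 0.0556) and Trim16 by -1.69 (limma adjusted p = 0.0641). Over the 29 alternatives the highest adjusted p was 0.0641 for Trim16, 0.109 for Akr1b8, 0.221 for Gstz1, 0.254 for Mgst2 and 0.412 for Akr1b10.

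**Figure D5:**
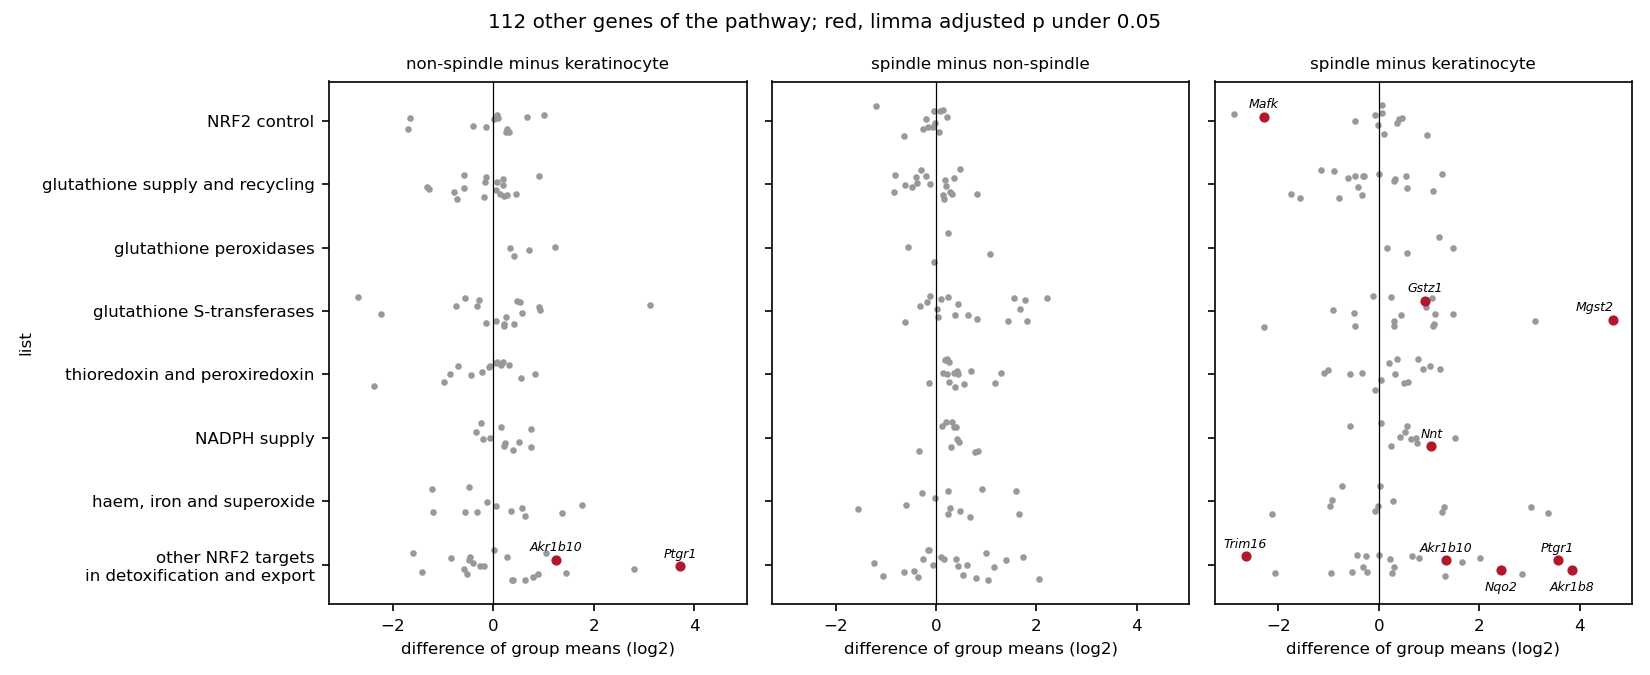
Difference of group means on the log2 scale for 112 other genes of the glutathione and NRF2 pathway in 3 comparisons, 1 point per gene, by list. Red points with names had a limma adjusted p under 0.05: 2 for non-spindle minus keratinocyte, 0 for spindle minus non-spindle and 9 for spindle minus keratinocyte.

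Between spindle and non-spindle lines, limma called 0 of the 112 genes, and 20 (17.9%) had an unadjusted p under 0.05, beside 20.7% of all genes. All Spretus-cross lines in this comparison are on the non-spindle side, and the part of the cross was not tested. The median difference was 0.22 over the 112 genes and 0.04 over all. By list, the median was 0.40 for glutathione transferases, 0.37 for thioredoxin and peroxiredoxin genes, with 14 of 15 above 0, and 0.36 for NADPH supply, with 10 of 11 above 0, beside 7051 of all 12641 genes. In the Spretus comparison 14 of the same 15 and 8 of the same 11 genes were above 0, beside 6685 of all genes. The spindle minus non-spindle median was -0.06 for the genes of NRF2 control and 0.00 for glutathione supply and recycling. Without MSC12, MSC11B and MSC7A, the lines low in keratinocyte markers, 17 of the 112 genes were called (15.2%), 14 of them higher in spindle lines, beside 15.5% of all genes. These 3 lines bear on the 10 genes too: without them the spindle minus non-spindle difference was 1.46 in place of 0.90 for Nqo1 and -1.09 in place of -0.65 for Gsta4. Within the Spretus-cross comparison, limma called 0 of the 112, and 16 (14.3%) had an unadjusted p under 0.05, beside 10.9% of all genes.

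Of 11 fixed reference genes of the pathway, limma called 0 in each of the 4 comparisons. At an unadjusted p under 0.05 were Gss between non-spindle and keratinocyte lines, Fth1 and Gpx4 between spindle and non-spindle lines, Fth1, Gpx4 and Gss between spindle and keratinocyte lines, and Bach1 in the Spretus comparison. Nfe2l2 averaged 10.46 ± 0.60 in keratinocyte, 10.73 ± 0.25 in non-spindle and 10.86 ± 0.59 in spindle lines. Keap1 averaged 8.68 ± 0.21, 8.52 ± 0.43 and 8.74 ± 0.29 in the same order. Bach1, a repressor that competes for the same elements, averaged 8.84 ± 0.36, 8.43 ± 0.46 and 8.36 ± 0.46. For the cystine transporter gene Slc7a11 the spindle minus keratinocyte difference was -1.56 (SE 0.93, limma adjusted p = 0.361). For Gss, which completes glutathione, it was -0.79 (SE 0.26, limma adjusted p = 0.0873), and for the iron store gene Fth1 it was 1.30 (SE 0.41, limma adjusted p = 0.0681). For the peroxidase of lipid peroxides, Gpx4, the spindle minus non-spindle difference was 1.08 (SE 0.35, limma adjusted p = 0.123). Gsr, Gpx1, Txn1 and Me1 had differences between -0.40 and 0.57 in the 3 stage comparisons, none of them called.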

How the data were processed

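The authors deposited log2 values made with RMA, per the submitters' processing notes, for 26 Affymetrix M430 2.0 arrays, 1 per line. RMA corrects background, quantile-normalises arrays and summarises probes, which hides any shift in total RNA. The software used is not given in the sources used here. Log2 values of 45037 probe sets ran from 2.28 to 14.92. A table of probe sets and genes named 34945 of them by 1 gene, 932 by several and 9160 by none, and RefSeq (GRCm38.p6) supplied symbols and promoter sequences.

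For each gene, the single-gene probe set of the highest mean was used. Genes above the array median on at least 2 arrays were tested, 12641 in all. limma 3.58.1 (lmFit and eBayes, R 4.3.3) fitted the 3 stage groups of 21 lines in 1 model and the Spretus comparison in 12 lines. Genes were called at a Benjamini-Hochberg adjusted p under 0.05 over all genes tested. The fit was tested on simulated data.

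The 10 genes, the pathway lists and the tests were chosen with earlier results of these data known. All 10 genes are named, with every called pathway gene and fixed reference genes, of which Prdx1 and G6pdx had no single-gene probe set. Lines were grouped only where label and flags agree. No label shows several cultures of a line. The p-values therefore reflect differences among lines, some of them possibly related, and the number of arrays limits the precision. Alternatives changed the filter, the probe set rule, the centring, the placement of lines, a block for names and the lines used.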

Additional observations from a re-analysis of the deposited data

Results flagged for a closer look

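In groups of 4 to 10 lines, a line was singled out where its gap to the next line was a larger part of the group's range than Dixon's 95% critical value allows. This was asked of 30 genes in 3 groups, 90 cases, of which 12 met it, and chance alone gives about 1 in 20. The cases share lines and are not independent, so no excess over chance is read from the count. Among the spindle lines, CarC had the highest Hmox1, 9.82 against 7.38 to 8.22 in the other 6, and the lowest Gpx3, 4.41, which is background. CarC also had the highest Bach1, 9.36, the lowest Gsr, 8.51, and the lowest Txn1, 12.88. D3 had the lowest Nnt of the spindle lines, 9.09.

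Among the 6 Spretus-cross lines, MSCP5 had the highest Gpx2, 9.98 against 5.02 to 6.82, and MSC7A the highest Gpx3, 6.72 against 4.67 to 4.81. MSCP1 had the lowest Gstp1, 11.52 against 12.93 to 13.74, the lowest Srxn1, 6.34 against 8.15 to 9.06, and the lowest Nqo2, 6.41. Among the 6 other non-spindle lines, E4 had the highest Nqo1, 9.25 against 4.12 to 5.69. Leaving out MSCP1, the Spretus-cross difference was 0.65 in place of 0.35 for Gstp1 and 0.65 in place of 0.28 for Srxn1.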

How the results depend on the processing

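No paired analysis was possible because the labels carry no replicate numbers, and those used here only name the lines. Leaving out 1 line at a time, the pathway genes called ran from 1 to 5 for non-spindle against keratinocyte lines (2 with all lines), 0 to 3 for spindle against non-spindle lines (0), 3 to 10 for spindle against keratinocyte lines (9) and 0 to 3 for the Spretus comparison (0). All genes called ran from 147 to 352 (255 with all lines), 2 to 471 (8), 258 to 765 (676) and 0 to 163 (0) in the same order. The extremes were without C5N and MSCP5, without PDV and MSC11B, without C5N and B9, and, for 163, without MSCP1. Without MSC12, MSC11B and MSC7A, 1954 genes and 17 pathway genes were called between spindle and non-spindle lines. With all lines placed by the cell type label, 0 genes were called there, and 0 pathway genes between non-spindle and keratinocyte lines; 5 of the 9 pathway calls between spindle and keratinocyte lines were lost. Without the filter on low values these were 3 and 1, and with the name as a random block 2 and 1. With the mean of all probe sets 5 genes were called between spindle and non-spindle lines. With 1 array of each set of close arrays (without H11, B9ras, MSCP1 and MSN2), chosen after seeing the data, 137, 0, 321 and 4 genes were called in the order above, and 1 and 5 pathway genes against keratinocytes in non-spindle and spindle lines. In the Spretus comparison, Gpx2, Gstp1 and Gsta4 turned to 0.55, -0.040 and 0.31 without MSC12, MSC11B and MSC7A. Leaving out 1 line, Gpx2 ran from -1.18 to 0.22 (without B9) and Txnrd1 from -0.036 (without SN161) to 0.35. The cause of these changes was not tested beyond the fewer lines or genes used. Against keratinocytes, leaving out 1 line, the Gpx2 difference ran from -5.44 to -4.99 in non-spindle lines and from -6.46 to -6.19 in spindle lines, but with all lines placed by the cell type label it was -3.85 and -4.90. Levels near the array median limit what can be read for Gpx2, Gpx3 and Nqo1.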
